A study of Homo sapiens with 6 samples.

Results

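The expression of 10 Krueppel-like factor genes was examined in MDA-MB-231 cells treated with vehicle or with the peptide PDBAG1. The genes were KLF2, KLF3, KLF4, KLF5, KLF6, KLF7, KLF9, KLF10, KLF11 and KLF13, chosen by symbol among the 17631 genes of the deposited tables, which also hold 7 other KLF genes. All 10 were found, and all 10 passed the filter on low values that left 12582 genes for testing. The choice of genes used no measured value of its own, but it was made with earlier results of these data known.

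MDA-MB-231 is a widely used human cell line of triple-negative breast cancer with mesenchymal features. PDBAG1 is a synthetic peptide that joins a stretch of the enzyme GPD1 to a cell-penetrating sequence, and the study examined it as a ligand of the mitochondrial protein C1QBP. For RNA-seq there were 3 libraries of cells given vehicle and 3 libraries of cells given 30 µM PDBAG1, both for 24 h, and the comparison asked how the peptide changed the transcriptome. The composition of the vehicle is not given in the sources used here, and nothing states whether the 3 libraries of a group came from separate cultures, so p values measure only the spread between these libraries. A single line and a single dose were profiled.

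Krueppel-like factors are transcription factors with C2H2 zinc fingers at the carboxyl end that bind GC-rich and CACCC-type DNA, and they are relatives of SP1. Their amino-terminal regions differ and recruit different cofactors, so that some members mainly activate and others mainly repress. Several are induced quickly by growth factors, hormones, cytokines or stress, and in the breast epithelium they take part in proliferation, differentiation and cell migration.

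The upstream sequences of 3 members are shown. KLF9 and KLF13 are close relatives that passed both thresholds described below, and KLF2 is known as a target of MEF2 factors and has a MEF2 motif here. The sequences are the 250 bases before the RefSeq gene start on build GRCh38.p14, written 5′ to 3′ on the strand of the gene. Capitals mark matches on either strand to the GC box GGGCGG and the CACCC box, both of them motifs of the SP and KLF family. They also mark matches to CTANNNNTAG, a loose form of the MEF2 motif in which N is any base. The window of KLF9 is chr9:70414658-70414907 on the minus strand, that of KLF13 is chr15:31326585-31326834 on the plus strand and that of KLF2 is chr19:16324576-16324825 on the plus strand.
KLF9: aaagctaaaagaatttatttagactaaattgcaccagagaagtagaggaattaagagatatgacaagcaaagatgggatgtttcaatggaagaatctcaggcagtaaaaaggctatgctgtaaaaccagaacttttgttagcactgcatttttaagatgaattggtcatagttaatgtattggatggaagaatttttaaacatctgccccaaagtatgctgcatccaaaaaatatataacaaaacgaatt
KLF13: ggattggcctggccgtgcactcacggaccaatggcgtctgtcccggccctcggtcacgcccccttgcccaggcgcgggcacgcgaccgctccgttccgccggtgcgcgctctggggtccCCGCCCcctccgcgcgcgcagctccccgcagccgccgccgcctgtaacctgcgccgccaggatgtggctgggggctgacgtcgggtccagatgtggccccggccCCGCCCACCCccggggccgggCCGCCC
KLF2: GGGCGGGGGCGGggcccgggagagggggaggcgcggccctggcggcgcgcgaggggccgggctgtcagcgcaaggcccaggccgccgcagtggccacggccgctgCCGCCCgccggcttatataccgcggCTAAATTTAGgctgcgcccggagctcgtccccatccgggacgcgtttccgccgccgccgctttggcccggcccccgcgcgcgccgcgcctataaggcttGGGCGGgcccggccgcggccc
The windows differed in composition. GC content was 32.4% for KLF9, 78.8% for KLF13 and 80.0% for KLF2, against a median of 58.0% over 35116 such windows. KLF9 held 0 GC boxes and 0 CACCC boxes, whereas KLF13 held 3 GC boxes and 1 CACCC box, which shares bases with 1 of them. KLF2 held 4 GC boxes and 1 MEF2 motif, which starts 120 bases before the gene start. Among the windows of the other members, 1 of the 2 for KLF11 held a match to the loose pattern, CTAGCGGTAG. Its middle bases are GCGG, where the KLF2 match CTAAATTTAG has only A and T. Over all windows, 42.6% held a GC box, 54.7% a CACCC box and 2.36% a match to the loose MEF2 pattern. The cores of the hypoxia-response element, ACGTG and GCGTG, were found in 18.5% and 32.2% of all windows, and KLF13 held GCGTG 2 times. Neither core was in the KLF9 or KLF2 window. These matches describe the letters of the windows and say nothing of binding. RefSeq windows were used for 8 of the 10 genes. KLF3 had no entry, and any entry of KLF10 was left out.

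The values the authors deposited are TPM, a measure of transcript abundance scaled for transcript length and set to a common sum in each library. Sequencing depth cannot be read from them, and the only measure of precision is the spread among 3 libraries in each group. The libraries had 12392 to 12611 genes with a TPM of at least 1. Markers fixed for the line were high and moved with treatment. VIM, at 4174 to 5942 TPM in the 6 libraries, CD44 and MSN rose, with log2 fold changes of 0.46, 0.59 and 0.45, and AXL and CAV1 fell by 0.26 and 0.30 on the log2 scale. Of the luminal and epithelial markers, PGR, FOXA1, CDH1 and ESRP1 stayed under 1 TPM, and KRT18, KRT19, CLDN4, CLDN7 and ERBB2 were well above it. Between these lay ESR1 at 1.96 to 3.38 TPM, GATA3 at 2.73 to 3.88 TPM and EPCAM at 3.92 to 5.78 TPM, none of which passed. KRT19 rose from 637 to 906 TPM on average, CLDN4 from 86.9 to 113 TPM and CLDN7 from 57.4 to 77.7 TPM, whereas KRT18 fell by 0.21 on the log2 scale and ERBB2, near 25 TPM, did not pass. The part of these markers in the results below was not tested. The 4 adipocyte markers stayed under 1 TPM in every library. The summed TPM of the 4 endothelial markers was 4.74 to 5.35 with vehicle and 9.10 to 10.5 with PDBAG1. This sum was mostly PECAM1, and VWF, CDH5 and KDR were under 1 TPM in all 6 libraries. The 3 leukocyte markers present in the tables summed to 8.90 to 11.0 TPM. In bulk libraries a higher level per cell and a larger share of cells with the transcript cannot be told apart.

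Most of the 10 chosen Krueppel-like factors were higher with PDBAG1. At a Benjamini-Hochberg adjusted p under 0.05 in limma, fitted on log2(TPM + 1) across all genes tested, 8 of the 10 rose and 0 fell. Of the 4 other KLF genes that could be tested, 0 rose and 1 fell. Over all genes tested 37.6% passed this threshold, 21.7% as higher and 15.9% as lower. With the further limit of a 1.5-fold change, the threshold of the study, taken here on the log2(TPM + 1) scale, 3 rose, namely KLF7, KLF9 and KLF13. By both limits 3.34% of all genes tested passed in either direction and 2.86% as higher. This scale understates the fold of genes at low TPM, so a ratio of mean TPM can exceed 1.5 in a gene that misses the limit. In 9 of the 10 genes every PDBAG1 value exceeded every vehicle value, and in 0 the reverse held. Over all genes tested 47.4% had groups that did not overlap, 27.2% with PDBAG1 higher and 20.2% with PDBAG1 lower. The median log2 fold change was 0.48 for the 10 genes and 0.03 for all genes tested.

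**Figure D1:**
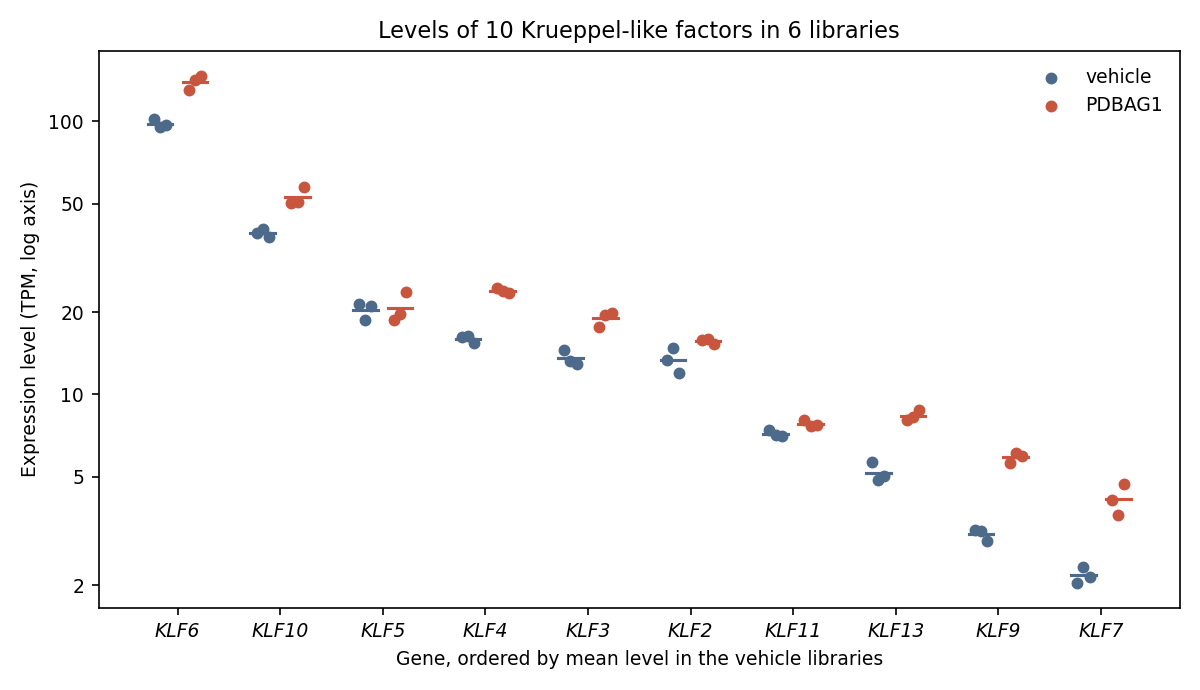
Expression level in TPM on a log axis for the 10 genes, ordered by their mean in the vehicle libraries, with 1 point per library and a line at the mean of each group of 3. KLF6 is the most abundant in every library, the PDBAG1 points lie above the vehicle points in 9 genes, and the points of KLF5 overlap.

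The 10 genes covered a wide range of levels. In the vehicle libraries the order by mean TPM was KLF6, KLF10, KLF5, KLF4, KLF3, KLF2, KLF11, KLF13, KLF9 and KLF7, from 98.1 ± 3.23 TPM for KLF6 to 2.18 ± 0.147 TPM for KLF7 (SD, n = 3). Neighbours in this order did not overlap in any library, except KLF3 and KLF2. KLF6 alone made up 45.0% ± 0.786 of the summed TPM of the 10 genes in the vehicle libraries and 46.8% ± 0.846 in the PDBAG1 libraries (SD, n = 3 each). The summed TPM was 224, 216 and 214 in the vehicle libraries and 283, 297 and 313 in the PDBAG1 libraries, a ratio of means of 1.37. Of the summed gain of 79.8 TPM, KLF6 made up 51.8% and KLF10 17.3%. The 3 genes that rose at least 1.5-fold were those with the lowest levels under vehicle, and together they added less TPM than KLF10.

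KLF6 and KLF7 are closely related activators. KLF6 is an early-response gene of tissue injury and is often altered in tumours, and KLF7 is best known from neurons and fat cells. KLF6 was at 102, 95.4 and 97.3 TPM in the vehicle libraries and at 130, 142 and 146 TPM in the PDBAG1 libraries. All 3 PDBAG1 values lay above all 3 vehicle values. The log2 fold change was 0.50 (standard error, SE, 0.05, limma adjusted p = 4.47e-06), the smallest adjusted p of the 10 genes. KLF7 was at 2.05, 2.34 and 2.15 TPM with vehicle and at 4.12, 3.61 and 4.69 TPM with PDBAG1. Its groups were also apart, although the PDBAG1 libraries spread over a coefficient of variation of 13.1%. The log2 fold change of KLF7 was 0.69 (SE 0.11, limma adjusted p = 0.000229), with a 95% interval from 0.46 to 0.92 that includes the 1.5-fold limit of 0.58. Because KLF7 is expressed near 2 TPM, the log2(TPM + 1) scale understates its change, and the ratio of its mean TPM was 1.90.

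KLF9 and KLF13 belong to the subgroup of repressors that recruit the SIN3 corepressor. KLF9 is induced by glucocorticoids and thyroid hormone in many tissues, and KLF13 was described as an activator of the chemokine gene CCL5 in T cells. KLF9 was at 3.18, 3.16 and 2.91 TPM with vehicle and at 5.59, 6.10 and 5.95 TPM with PDBAG1. The lowest treated library thus stood well clear of the highest vehicle library, and the spread within each group was small. The log2 fold change of 0.75 (SE 0.09, limma adjusted p = 2.61e-05) was the largest of the 10 genes, and 98.5% of all genes tested had a lower value. KLF13 was at 5.65, 4.86 and 5.03 TPM with vehicle and at 8.04, 8.28 and 8.79 TPM with PDBAG1. Its groups did not overlap, and its log2 fold change was 0.60 (SE 0.09, limma adjusted p = 0.000122). KLF13 kept an adjusted p under 0.05 in all 14 alternative settings but reached 1.5-fold in 9 of them, with a log2 fold change of 0.42 when dependence on transcript length and GC content was taken out, a setting chosen after the data were seen. It also fell short of 1.5-fold under median-of-ratios scaling, at 0.57, and under quantile normalization, at 0.50. The same held without vehicle replicate 2 and without PDBAG1 replicate 3. Its rise was therefore near the fold limit, whereas KLF7 and KLF9 reached that limit in all 14. Under quantile normalization KLF7 did so only narrowly, at 0.586 against a limit of 0.585.

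KLF2 and KLF4 are related activators known from the endothelium, where the kinase ERK5 and MEF2 factors induce them, and KLF4 is also a factor of epithelial differentiation and of reprogramming to pluripotency. KLF4 was at 16.2, 16.4 and 15.5 TPM with vehicle and at 24.6, 24.0 and 23.4 TPM with PDBAG1. Both groups were tight, and the treated libraries all lay higher. The log2 fold change of KLF4 was 0.55 (SE 0.06, limma adjusted p = 1.35e-05), just under the 1.5-fold limit. KLF2 was at 13.4, 14.8 and 11.95 TPM with vehicle and at 15.8, 15.9 and 15.3 TPM with PDBAG1. The groups of KLF2 did not overlap, but the highest vehicle library was close to the lowest treated one. Its log2 fold change was 0.22 (SE 0.08, limma adjusted p = 0.0425). This call was lost in 11 of 14 alternative settings, with adjusted p from 0.0185 to 0.280 over the alternatives. It was lost without vehicle replicate 1 or 3 and without PDBAG1 replicate 1, 2 or 3, where the log2 fold change was 0.15 to 0.24, and it was kept without vehicle replicate 2, where it was 0.29. With dependence on length and GC content taken out it was 0.10.

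KLF5 promotes proliferation in epithelia and is abundant in many basal breast tumours. It was at 21.4, 18.8 and 21.0 TPM with vehicle and at 18.7, 19.8 and 23.7 TPM with PDBAG1. The groups overlapped, with the treated libraries holding both the lowest and the highest value. The log2 fold change was 0.02 (SE 0.08, limma adjusted p = 0.898), with a 95% interval from -0.17 to 0.20, and its sign changed under both other scalings and without vehicle replicate 2 or PDBAG1 replicate 3. A change of 1.5-fold in either direction lies outside this interval. KLF3, a repressor that works through the CtBP corepressors, was at 14.6, 13.2 and 12.96 TPM with vehicle and at 17.7, 19.5 and 19.9 TPM with PDBAG1. Its treated libraries were all higher, with a log2 fold change of 0.46 (SE 0.07, limma adjusted p = 0.000285).

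KLF10 and KLF11 were first known as early genes induced by TGF-beta, and both can recruit SIN3. KLF10, the gene with the second-highest level, was at 38.9, 40.3 and 37.7 TPM with vehicle and at 50.4, 50.4 and 57.7 TPM with PDBAG1. The 3 treated libraries were all higher, and 1 of them stood above the other two. The log2 fold change was 0.43 (SE 0.06, limma adjusted p = 0.000112). KLF11 was at 7.44, 7.08 and 7.06 TPM with vehicle and at 8.05, 7.68 and 7.72 TPM with PDBAG1. The groups of KLF11 were apart by a narrow margin. The difference did not pass the test (log2 fold change 0.11, standard error 0.08, 95% interval -0.06 to 0.27, limma adjusted p = 0.312), nor did it in any of the 14 alternatives.

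**Figure D2:**
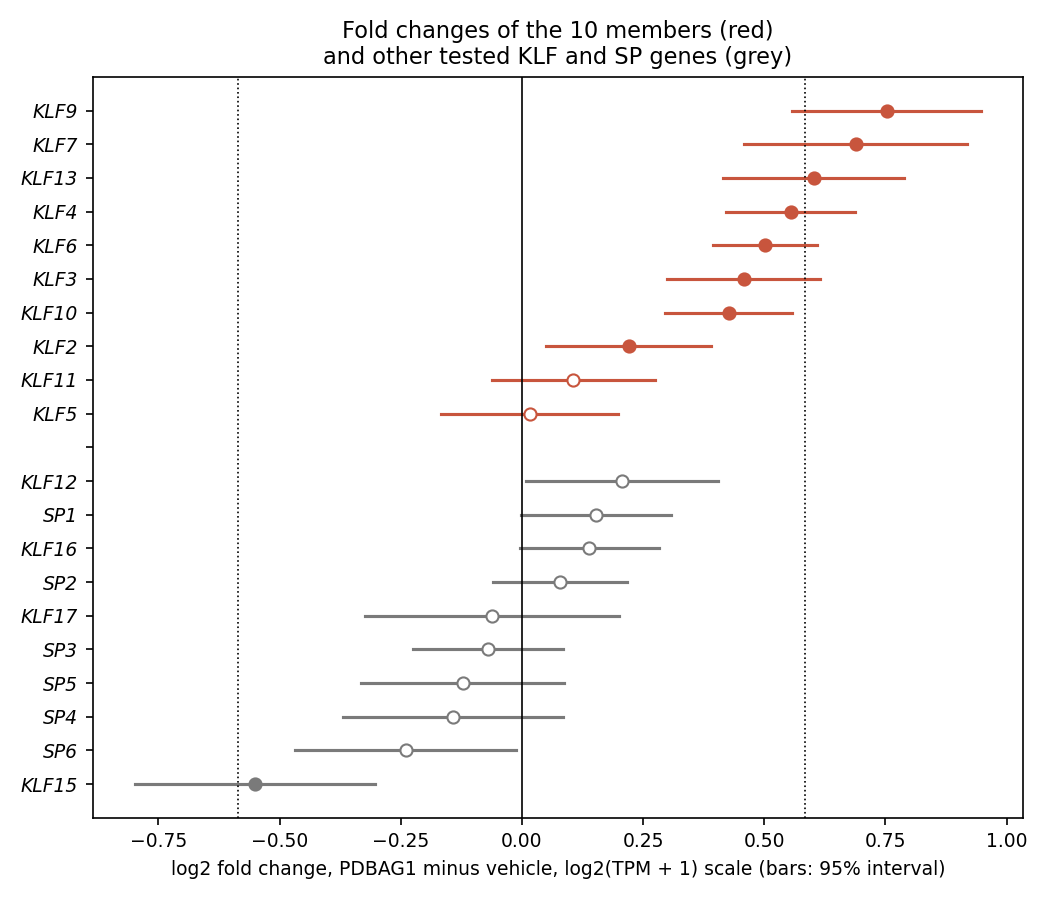
Log2 fold change of PDBAG1 against vehicle on the log2(TPM + 1) scale with its 95% interval for the 10 genes (red) and for the other KLF and SP genes that could be tested (grey). Filled points passed an adjusted p of 0.05 in limma, and dotted lines mark 1.5-fold. Of the red points 8 are filled, KLF11 and KLF5 are open, and KLF15 at -0.55 is the filled grey point.

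**Figure D3:**
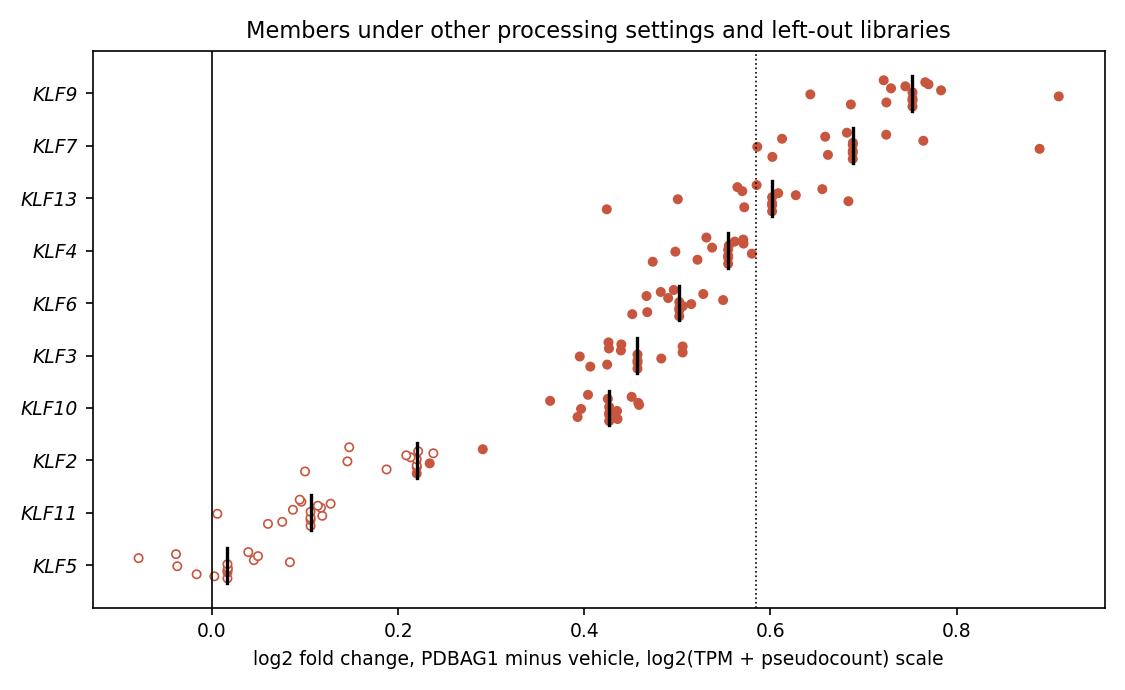
Log2 fold change of each of the 10 genes under 14 alternative settings (points, filled where the adjusted p was under 0.05) beside the reported value (black line), with the 1.5-fold limit dotted. KLF7 and KLF9 stay at or right of the limit, KLF13 lies on both sides of it, most points of KLF2 are open, and KLF5 lies on both sides of 0.

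Related genes were set against each other as ratios of TPM within a library, for 5 pairs in all, chosen by relatedness with the results known. With 3 libraries against 3 an exact permutation test cannot give a two-sided p under 0.1, and all 5 ratios gave p = 0.1, also after adjustment over the 5 (exact permutation test of the log2 ratio). The ratio of KLF4 to KLF5 was 0.757, 0.873 and 0.735 with vehicle and 1.32, 1.21 and 0.989 with PDBAG1. KLF5 was thus the more abundant of the pair in all vehicle libraries and KLF4 in 2 of the 3 treated ones. The ratio of KLF10 to KLF11 moved from 5.42 ± 0.244 to 6.76 ± 0.629 (SD, n = 3 each). KLF4 to KLF2 moved from 1.205 ± 0.0934 to 1.53 ± 0.0253 and KLF9 to KLF13 from 0.597 ± 0.0466 to 0.703 ± 0.0306 (SD, n = 3 each). The ratio of KLF6 to KLF7 was lower with PDBAG1, at 34.04 ± 4.51 against 45.2 ± 4.42 (SD, n = 3 each). In each of the 5 pairs the ratios of the groups did not overlap, and the share of other gene pairs with such ratios was not computed. KLF11 and KLF13, which were apart in the vehicle libraries with KLF11 higher, overlapped in the PDBAG1 libraries.

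No other gene of the family passed the test as higher. Of the other 8 KLF genes listed, 7 were in the tables and 4 could be tested, and of these 0 rose and 1 fell at a limma adjusted p under 0.05. KLF15, a metabolic regulator in muscle and liver, was at 3.02 ± 0.206 TPM with vehicle and fell to 1.75 ± 0.323 TPM (SD, n = 3 each). Its log2 fold change was -0.55 (SE 0.12, limma adjusted p = 0.00207). KLF12, a repressor like KLF3, was at 6.67 ± 0.531 and 7.86 ± 0.760 TPM (SD, n = 3 each, limma adjusted p = 0.0948), and it was the 1 gene of these 4 that was higher at an unadjusted p under 0.05. KLF16 was at 31.1 ± 1.37 and 34.4 ± 2.87 TPM (SD, n = 3 each). KLF16 and KLF17 did not pass, with log2 fold changes of 0.14 and -0.06 (limma adjusted p = 0.120 and 0.721). Of 6 tested SP genes none passed, by a limma adjusted p of 0.05, and 1 had an unadjusted p under 0.05. This was SP6, at 2.60 ± 0.286 and 2.05 ± 0.0929 TPM (SD, n = 3 each, limma adjusted p = 0.0919). SP1, the founding member, was at 28.4 ± 2.56 and 31.6 ± 2.10 TPM (SD, n = 3 each, limma adjusted p = 0.114).

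Cofactors and turnover factors had lower medians than the 10 genes. Among 10 cofactor genes 3 rose and 1 fell, none by 1.5-fold, and the median log2 fold change was 0.14. Over all genes tested 37.6% passed the same adjusted p threshold, 21.7% as higher and 15.9% as lower. This is the background for the turnover genes as well. SAP30, a subunit of the SIN3 complex, rose from 58.4 ± 2.10 to 85.7 ± 2.24 TPM and SIN3B from 29.0 ± 1.47 to 34.8 ± 0.775 TPM (SD, n = 3 each; limma adjusted p = 1.38e-06 and 0.00344). EP300 also rose, by a log2 fold change of 0.30. The cofactor gene that fell was the deacetylase gene HDAC2, from 132 to 116 TPM on average (log2 fold change -0.18, limma adjusted p = 0.0102). SIN3A and HDAC1 did not pass, with log2 fold changes of 0.15 and 0.10 (limma adjusted p = 0.110 and 0.125). CTBP1 and CTBP2, the corepressors of KLF3, did not pass, with log2 fold changes of -0.07 and 0.06. Among 8 genes of protein turnover 3 rose and 1 fell, and the median was 0.11. The ubiquitin ligase gene SMURF1 rose by a log2 fold change of 0.30, VHL by 0.23 and BAP1 by 0.14. The gene that fell was SMURF2, from 160 to 142 TPM on average (log2 fold change -0.17, limma adjusted p = 0.0295). WWP1, whose product targets KLF5, was at 24.2 ± 2.18 and 27.5 ± 2.30 TPM (SD, n = 3 each, limma adjusted p = 0.0798).

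Genes that act upstream of Krueppel-like factors or are induced along with them in other settings were read in the same way. Of the 8 genes of the axis from ERK5 to MEF2, 5 rose and 0 fell, none by 1.5-fold on the log2(TPM + 1) scale. The median log2 fold change of the 8 was 0.37. Among all genes tested, 21.7% passed as higher and 15.9% as lower. MEF2D was at 17.1, 15.5 and 16.9 TPM with vehicle and at 24.7, 24.8 and 24.8 TPM with PDBAG1 (log2 fold change 0.56, limma adjusted p = 1.57e-05). MAPK7, which encodes ERK5, was at 14.96, 13.4 and 14.2 TPM with vehicle and at 21.3, 20.6 and 21.4 TPM with PDBAG1 (log2 fold change 0.54, limma adjusted p = 3.20e-05). In both genes the groups were far apart. MEF2A and MEF2C, named after their values were seen, had log2 fold changes of 0.51 and 0.49, and MEF2B did not pass, with -0.12. Of the upstream kinase genes, MAP3K2 passed as higher, with 0.25 (limma adjusted p = 0.0415). MAP2K5 and MAP3K3 did not pass, with 0.16 and 0.13.

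Of 9 tested immediate-early genes outside the AP-1 family, 7 rose, 6 of them at least 1.5-fold, and IER5 fell. Among all genes tested, 21.7% passed as higher, 2.86% with the fold limit added, and 15.9% as lower. NR4A1, an orphan nuclear receptor gene, rose from 1.41 ± 0.133 to 7.49 ± 0.655 TPM, NR4A2 from 1.00 ± 0.0569 to 4.45 ± 0.326 TPM and EGR1 from 5.91 ± 0.639 to 14.3 ± 1.41 TPM (SD, n = 3 each). The other rises past the fold limit were those of ATF3, IER3 and ZFP36, with log2 fold changes of 0.71, 0.62 and 0.64. SRF, the factor that drives many such genes, did not pass, with a log2 fold change of -0.05. The largest rises in this list were larger than that of any of the 10 Krueppel-like factors.

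Of 6 tested glucocorticoid-response genes 4 rose and 1 fell. For this list and the next, the shares among all genes tested were 21.7% higher and 15.9% lower. TSC22D3, the gene of the glucocorticoid-induced leucine zipper, was at 11.2 ± 0.845 TPM with vehicle and rose to 19.3 ± 0.903 TPM (SD, n = 3 each), by 0.74 on the log2 scale, whereas FKBP5, another hormone-induced gene, fell by 0.36 on the log2 scale. The receptor gene NR3C1 did not pass, with a log2 fold change of 0.13. All 7 TGF-beta response genes passed, 6 as higher and 1 as lower, with a median log2 fold change of 0.33. The TGF-beta feedback inhibitor SMAD7 rose from 2.27 ± 0.303 to 3.43 ± 0.420 TPM (SD, n = 3 each). Past 1.5-fold on the log2(TPM + 1) scale were BHLHE40 and CCN2, whereas SMAD7 was at 0.44 on that scale. BHLHE40, a transcriptional repressor gene also induced by hypoxia, had a log2 fold change of 1.92. CCN2, which is also a YAP target, had -0.98. These lists therefore held genes that moved in both directions.

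**Figure D4:**
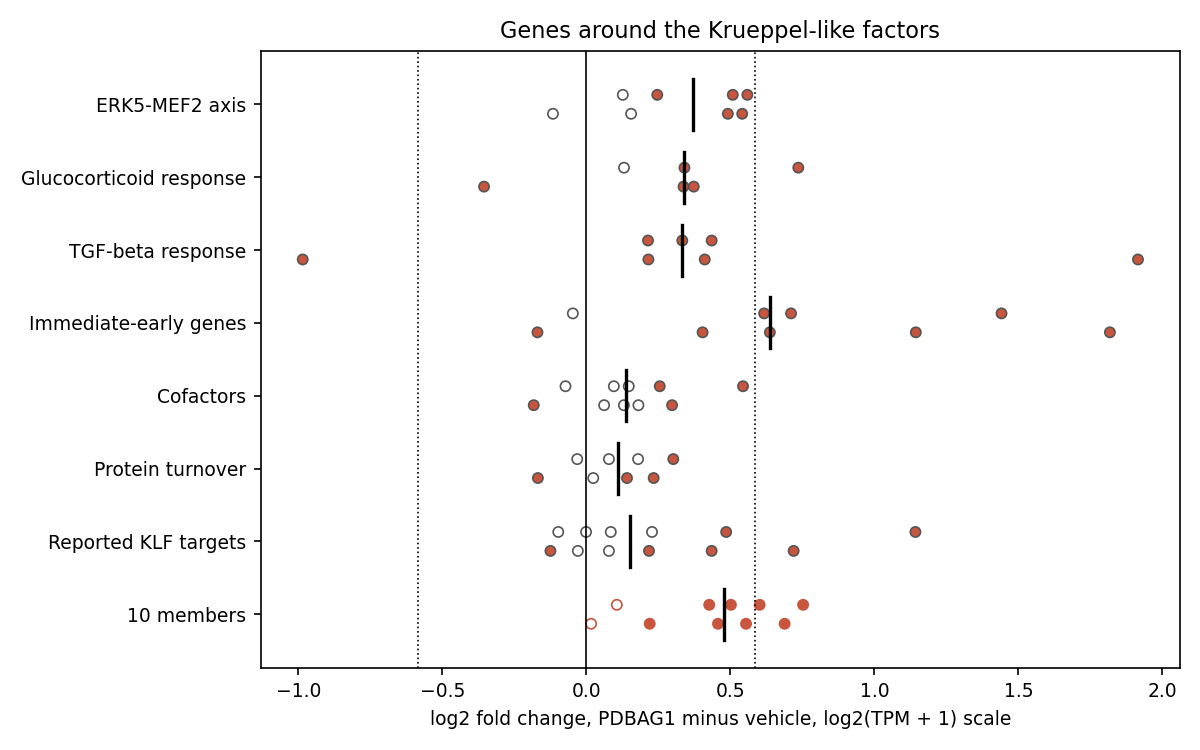
Log2 fold change on the log2(TPM + 1) scale of every tested gene in 7 related lists and of the 10 Krueppel-like factors, with filled points for an adjusted p under 0.05 in limma, a black line at each median and dotted lines at 1.5-fold. The immediate-early list has the highest median at 0.64, and the TGF-beta list spans -0.98 to 1.92.

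Among 14 genes reported as targets of these factors, 12 could be tested, 5 rose and 1 fell. The shares among all genes tested were 21.7% higher and 15.9% lower. CDKN1A, the cell cycle inhibitor p21 and a target of KLF4 and KLF6, was at 50.8, 50.8 and 50.7 TPM with vehicle and at 115, 114 and 111 TPM with PDBAG1 (log2 fold change 1.14, limma adjusted p = 4.38e-10). THBD, thrombomodulin and a target of KLF2, was at 19.1, 19.4 and 16.7 TPM with vehicle and at 30.3, 31.7 and 30.7 TPM with PDBAG1 (log2 fold change 0.72, limma adjusted p = 2.55e-06). The treated libraries were higher throughout in both genes. THBD is also expressed by endothelial cells, whose marker PECAM1 rose with PDBAG1 (log2 fold change 0.96, limma adjusted p = 2.21e-06) while their markers VWF, CDH5 and KDR stayed under 1 TPM. The other targets of KLF2 in the list, NOS3 and S1PR1, were near the expression limit and did not pass, with log2 fold changes of 0.08 and -0.10. CCND1, a target of KLF5, fell by 0.12 on the log2 scale, and CCL5, the target of KLF13, was at -0.001 on that scale (limma adjusted p = 0.996). Targets of risen factors thus included both genes that rose and genes that did not pass.

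For each of the 3 genes past both thresholds, the genes with the most similar profile over the 6 libraries were listed by Pearson correlation of log2(TPM + 1), as a description. The 6 libraries form 2 groups, so the treatment difference sets most of such a correlation. They were TTC30A, RELA and ESAM for KLF7, with r of 0.997 to 0.999. For KLF9 they were MCL1, TCP11L2 and LONP1, and for KLF13 they were EDEM1, ADRA1B and HMGXB3, with r of at least 0.998 for each. MCL1, which encodes an anti-apoptotic BCL2 relative, had a log2 fold change of 0.81.

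The positions of the 3 genes past both thresholds, on GRCh38 by GENCODE v44, are chromosome 2, 207074137 to 207173856 for KLF7, chromosome 9, 70384604 to 70414657 for KLF9, and chromosome 15, 31326835 to 31435665 for KLF13. Noncoding genes on the opposite strand overlap KLF3, KLF4, KLF7 and KLF11, among them KLF3-AS1 and MYOSLID. Whether reads were counted by strand is not given in the sources used here, so reads of such partners could be counted with these members. On the same strand, MIR2355 and KLF7-IT1 overlap KLF7 and the processed pseudogene UBE2CP4 overlaps KLF13, and strand alone cannot separate their reads.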

How the data were processed

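RNA-seq of MDA-MB-231 cells was analysed, with 3 libraries per group assigned from the sample titles. The labels name both this line and breast cancer tissue as source, and the study's methods describe the cell line. According to the methods the reads were mapped with HISAT2 to GRCh38.p13, while the submitters' processing notes name GRCh38.p12, HISAT2 2.0.4, Bowtie2 2.2.5 and RSEM 1.2.12. The methods name FPKM, but the deposited values are TPM with 2 decimals, scaled by the authors so that all libraries have a common sum.

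The filter kept genes that reached a TPM of 1 in no fewer than 3 libraries. The scale was log2(TPM + 1), tested with limma 3.58.1 in R 4.3.3 (lmFit, eBayes with a variance trend) with Benjamini-Hochberg adjustment over 12582 genes. The steps were tested on simulated data. Members and lists were chosen with earlier results of these data known. The text names all 10 members, and of each list of related genes (the marker lists have no such rule) the genes past both thresholds or otherwise the 2 with the smallest adjusted p. Any others are there for their role and were picked with their values known.

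Alternatives were other filters, a pseudocount of 0.1, median-of-ratios scaling, quantile normalization, a replicate block, no variance trend, each library left out, a fold limit of 2 and, added after the data were seen, removal of length and GC trends. None of the 13 neighbouring antisense or pseudogene symbols listed was in the tables used here.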

Additional observations from a re-analysis of the deposited data

How the results depend on the processing

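KLF3, KLF4, KLF6, KLF7, KLF9, KLF10 and KLF13 kept a rise with an adjusted p under 0.05 in limma in all 14 alternatives, and KLF11 and KLF5 passed in none. KLF2 lost its call at a log2 fold change of 0.22 with no filter, at 0.22 without the variance trend, at 0.19 under median-of-ratios scaling, at 0.15 under quantile normalization and at 0.10 once dependence on length and GC was removed (chosen after the data were seen). With each library left out it ranged from 0.15 to 0.29. The replicate block left KLF2 at 0.22 with an adjusted p of 0.0722, and changed no other member's call. The replicate numbers have no stated common origin, and deviations from the group means correlated at -0.21, 0.01 and -0.08 between libraries with the same number. KLF5 was at -0.017 under median-of-ratios scaling, at -0.037 under quantile normalization and from -0.079 to 0.084 with each library left out. At a fold limit of 2 the members called fell from 3 to 0 and all genes called from 420 to 80. Of the 420, 85.7% were higher, against 75.3% of the genes called under quantile normalization. The cause of these shifts was not tested. Depth is unknown, so counting error at low TPM, as for KLF7 and KLF9, could not be given.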
